A study of Mus musculus with 6 samples.

Results

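The genes described here encode the nuclear-coded proteins of the mitochondrial respiratory chain and the ATP synthase, with their assembly factors. They were taken by symbol from the RefSeq annotation of the mouse genome (GRCm38.p6, the assembly of build mm10): Nduf for complex I, Sdha to Sdhd for complex II, Uqcr for complex III, Cox followed by a number for complex IV, and Atp5 for complex V. The rule gave 109 of 21883 nuclear protein-coding genes, and no measured value entered it. Of the 109 genes, 87 encode subunits or isoforms of subunits and 22 encode assembly factors, including Sdhaf1 to Sdhaf4, whose symbols the rule for complex II also takes. In the counts by complex, Ndufa4 and Ndufa4l2 stand with complex IV despite their symbols. Cox7a2l, taken as an assembly factor of complexes III and IV, was counted with neither.

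CTCF ChIP-seq was done in the mouse hepatoma line Hepa-1c1c7, with 2 libraries from untreated cells (0 µM chromium) and 2 from cells given 25 µM potassium chromate, a hexavalent chromium salt, for 90 min. All 4 libraries used the same CTCF antibody and formaldehyde-fixed, sonicated chromatin of this 1 line, with no genetic change named. The libraries are called untreated 1, chromium 1, untreated 2 and chromium 2, and each has its own list of peaks called against the input sample of the same number. The series asks whether chromium changes access to CTCF sites in promoters. The labels do not state separate cultures for the libraries of a group, so p-values measure only a spread that may be technical.

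The respiratory chain passes electrons from NADH through complex I, or from succinate through complex II, to ubiquinone and complex III, and then through cytochrome c to complex IV, which reduces oxygen. Complexes I, III and IV pump protons, and complex V, the ATP synthase, uses the gradient to make ATP. Many promoters of these nuclear genes are known to bind NRF1 and the ETS factor GABPA, while CTCF, which reads DNA with zinc fingers, occupies insulators, domain boundaries and many promoters.

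On chromosomes 1 to 19, X and Y the untreated lists held 11707 (number 1) and 4495 (number 2) peaks and the chromium lists 14881 and 1905, and the read depth behind them is not known. Each peak carries a score of the authors' peak caller, used here only as a percentile within its own list, where 100 is the highest score. CTCF peaks do not measure expression, so they cannot show whether the cells are hepatocyte-like. Of 10 hepatocyte genes only Apoa2 had a peak at a gene end (10.0%), in both untreated lists, at percentiles of 25.3 and 9.15. Of 10 markers of other cell types, Krt19 (untreated 2) and Acta2 (chromium 2) had one (20.0%). Over all protein-coding genes 8.55% had one in any list, and 0.274% in both untreated and neither chromium list. With 10 genes in each set, the counts in any list are near the share of all genes.

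The promoters under the peaks that the results turn on are shown first. The sequences are the 250 bases before the annotated start, 5′ to 3′ along the gene, from the RefSeq promoter table of GRCm38.p6. The first 4 belong to the genes with a gene-end peak in 2 or more lists. The last 2, Uqcrc1 and Ndufb7, were chosen after their sequences were seen, because a peak of 1 list covers a match. The planned order, by number of lists and then mean percentile, would have given Ndufa10 and Ndufaf3 instead. No peak overlapped either of those windows, and the Ndufa10 window holds no match. A peak also covers a match in the Atp5g1 window, which is not printed. The last 2 windows thus do not show how often peaks cover matches. Capitals mark matches, on either strand, to a CTCF core motif, to its stricter form with an unbroken G run, to the NRF1 motif, to the ETS motif CCGGAAG, to the YY1 motif AAGATGGCG, or to AGGGGGNG, a shorter stretch that was chosen after the sequences were seen. The shorter stretch holds the G run of the stricter CTCF form, runs past its end and allows any letter after the run. A match to it can overlap both CTCF forms but need not be part of either.
Atp5g2: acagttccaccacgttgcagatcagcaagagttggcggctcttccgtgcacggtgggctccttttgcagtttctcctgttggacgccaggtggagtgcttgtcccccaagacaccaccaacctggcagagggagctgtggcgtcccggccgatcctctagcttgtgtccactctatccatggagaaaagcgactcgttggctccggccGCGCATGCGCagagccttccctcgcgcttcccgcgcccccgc
Cox14: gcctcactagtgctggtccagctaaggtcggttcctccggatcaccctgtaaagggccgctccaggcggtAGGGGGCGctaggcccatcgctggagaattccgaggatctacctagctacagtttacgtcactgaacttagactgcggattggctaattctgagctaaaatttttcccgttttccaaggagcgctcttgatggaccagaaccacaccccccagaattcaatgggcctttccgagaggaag
Ndufb10: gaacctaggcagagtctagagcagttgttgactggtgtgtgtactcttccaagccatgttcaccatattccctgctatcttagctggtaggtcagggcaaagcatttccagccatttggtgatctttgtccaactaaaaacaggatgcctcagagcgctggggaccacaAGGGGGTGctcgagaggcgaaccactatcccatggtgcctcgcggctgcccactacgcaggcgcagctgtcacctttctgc
Ndufaf4: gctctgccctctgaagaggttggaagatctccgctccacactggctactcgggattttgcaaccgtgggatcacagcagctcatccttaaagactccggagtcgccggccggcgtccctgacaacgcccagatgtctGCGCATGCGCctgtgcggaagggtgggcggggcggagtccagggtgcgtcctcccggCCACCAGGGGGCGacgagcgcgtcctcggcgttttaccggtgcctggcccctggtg
Uqcrc1: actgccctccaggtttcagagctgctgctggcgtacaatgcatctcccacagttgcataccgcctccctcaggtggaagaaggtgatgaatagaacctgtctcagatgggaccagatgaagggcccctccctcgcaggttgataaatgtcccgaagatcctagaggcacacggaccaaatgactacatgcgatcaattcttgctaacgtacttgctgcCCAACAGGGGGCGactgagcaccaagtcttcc
Ndufb7: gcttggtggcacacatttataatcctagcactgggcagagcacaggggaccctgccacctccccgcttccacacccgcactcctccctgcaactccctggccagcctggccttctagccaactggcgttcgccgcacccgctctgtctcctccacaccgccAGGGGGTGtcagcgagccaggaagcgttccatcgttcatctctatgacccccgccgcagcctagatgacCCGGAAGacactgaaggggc

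The Atp5g2 window lies on the minus strand of chromosome 15 (102671048 to 102671297) and its capitals are an NRF1 match, from 42 to 33 bases before the start. It holds no match to either CTCF form. The Cox14 window (chromosome 15, plus strand, 99725368 to 99725617) and the Ndufb10 window (chromosome 17, minus strand, 24724424 to 24724673) hold the shorter stretch alone, as AGGGGGCG and AGGGGGTG. The Ndufaf4 window (chromosome 4, plus strand, 24897833 to 24898082) holds the stricter CTCF core as CCACCAGGGGGC, from 56 to 45 bases before the start, and the NRF1 motif farther upstream. The Uqcrc1 window (chromosome 9, plus strand, 108936398 to 108936647) holds it as CCAACAGGGGGC, from 32 to 21 bases before the start. The Ndufb7 window (chromosome 8, plus strand, 83566508 to 83566757) holds AGGGGGTG and, closer to the start, the ETS motif. A match is a description of the letters and does not show that a factor was bound there.

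A gene was counted as having a gene-end peak when a peak midpoint lay within 1 kb of either end of the gene record. Such a peak was called at 12 of the 109 respiratory chain genes in untreated 1 (11%, exact Clopper-Pearson 95% interval 5.82 to 18.4), against 4.31% of all protein-coding genes. In chromium 1 it was called at 10 genes (9.17%, 4.49 to 16.2), against 4.31% of all genes. In untreated 2 it was called at 5 genes (4.59%, 1.51 to 10.4), against 1.63%. In chromium 2 it was called at 0 genes (upper bound 3.33%), against 0.43%. The share of these genes was thus above that of all genes in untreated 1, chromium 1 and untreated 2. The interval of untreated 2 held the share of all genes. Chromium 2, the shortest list, had no such peak, and for 109 genes this count is near its background of 0.43%. The intervals cover counting error over genes only, and genes are not replicates of a condition.

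**Figure D1:**
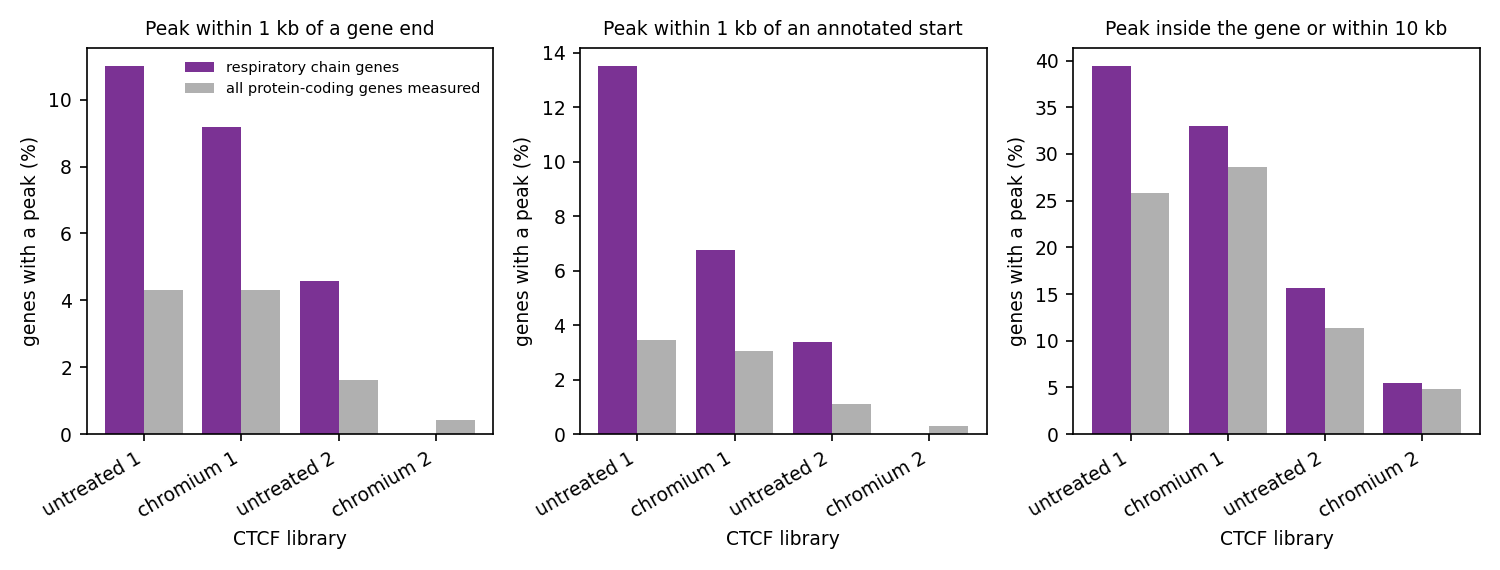
Percent of respiratory chain genes (purple) and of all protein-coding genes (grey) with a CTCF peak, by library, for 3 definitions of a peak at a gene; the middle panel covers the 89 respiratory chain genes and 17491 protein-coding genes with an entry in the promoter table. The purple bars stand above the grey ones in untreated 1, chromium 1 and untreated 2 in each panel, and chromium 2 has no purple bar in the first 2 panels.

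The untreated libraries averaged 7.8% ± 4.54 (SD, n = 2) and the chromium libraries 4.59% ± 6.49 (SD, n = 2), a difference of -3.21 percentage points (two-sided exact permutation test over the 4 libraries, p = 0.667). A design of 2 libraries against 2 cannot go below a p of 1 in 3. The difference was -1.83 points within the number 1 libraries and -4.59 points within the number 2 libraries. The groups overlapped, since chromium 1 lay above untreated 2, and the difference turned to 1.38 points with chromium 2 left out. The lists differ in length, and chromium 1, the longest, had a lower share of these genes than untreated 1 at the same 4.31% of all genes. With the lists trimmed to the same number of peaks 5 and 2 genes were called in the untreated lists (1.35% and 0.8% of all genes) and 2 and 0 in the chromium lists (0.987% and 0.43%), number 1 first.

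Over the 4 lists together, 20 of the 109 genes were called, against 8.55% of all protein-coding genes, and 4 had one in 2 or more lists, against 1.75%. The 4 were Atp5g2, Cox14, Ndufb10 and Ndufaf4. Atp5g2, Cox14 and Ndufb10 were called in all lists but chromium 2, a pattern that 0.311% of all genes had. Atp5g2 and Cox14 lie on chromosome 15, where 19.7% of all genes were called in any list, and Ndufb10 on chromosome 17 (16.4%). The share of genes with this pattern was not counted by chromosome. Counting genes whatever the place of their peaks, 0 respiratory chain genes were called in both untreated and neither chromium library (0.274% of all genes) and 0 showed the reverse (0.0274% of all genes). Of the 20 genes, 8 were called in untreated 1 alone (background 2.76%), 6 in chromium 1 alone (2.91%), 2 in untreated 2 alone (0.841%) and 1, Ndufaf4, in both number 1 lists alone (0.896%).

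**Figure D2:**
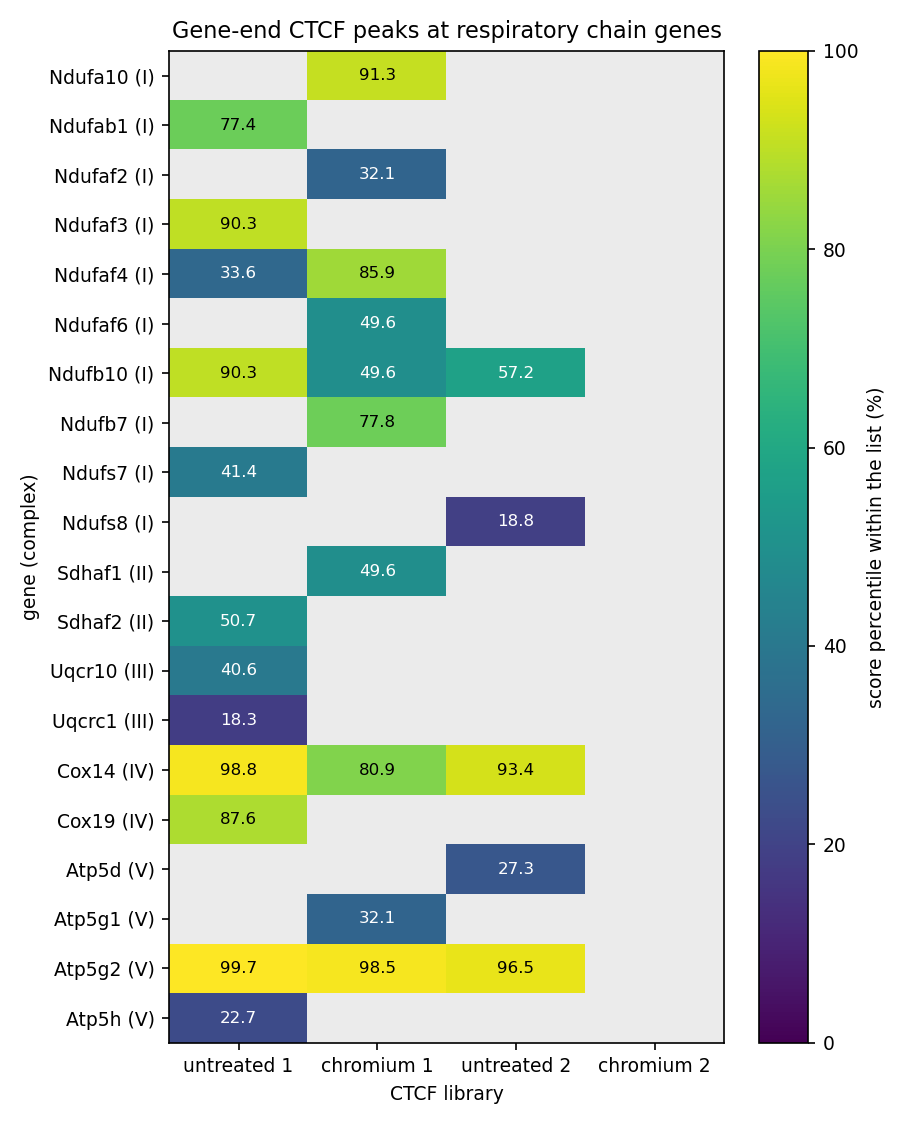
Score percentile of the gene-end peak of each of the 20 called genes (rows, with the complex in parentheses) in each CTCF library (columns), with grey where no peak was called and the higher value where a gene had more than 1 peak. Only Atp5g2, Cox14 and Ndufb10 are coloured in 3 columns, and the chromium 2 column is empty.

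Among gene-end peaks, the site with the highest percentile in each of untreated 1, chromium 1 and untreated 2 was in complex V. Atp5g2 encodes a form of subunit c, which forms the membrane ring that turns in the ATP synthase. Its record spans 102662868 to 102671047 on chromosome 15. The peak at its start ran from 102670977 to 102671612 in untreated 1 (score 17.9, percentile 99.7), from 102671030 to 102671341 in chromium 1 (9.69, 98.5) and from 102671115 to 102671433 in untreated 2 (7.46, 96.5). The 3 peaks overlapped one another by 227 to 319 bp, and the peaks of untreated 1 and chromium 1 covered all 250 bases printed above. In chromium 2 the closest peak was 69.0 kb off. A second site, inside the gene and 2825 to 2905 bp from its far end, was also shared by the same 3 lists, at percentiles of 94.3 in untreated 1, 95.8 in chromium 1 and 72.0 in untreated 2. So both Atp5g2 sites were held by the same 3 lists and were missing from chromium 2.

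The other called genes of complex V each had a peak in 1 list. Atp5g1, which encodes another form of subunit c, had a chromium 1 peak 128 bp upstream of its annotated start (percentile 32.1), and its window, not printed, holds a match to the looser CTCF core. Atp5h, subunit d of the peripheral stalk, had an untreated 1 peak 888 bp inside the gene from its start (22.7). A chromium 1 peak 1023 bp upstream of that start, at an end of Kctd2, missed the 1 kb limit. Atp5d, the delta subunit of the central stalk, had an untreated 2 peak 163 bp from its far end, within 1 kb of an end of the neighbouring Midn (27.3). In complex V as a whole 4 of 17 genes were called, against 8.55% of all genes in any list. By list, 2 were called in untreated 1 (4.31% of all genes), 2 in chromium 1 (4.31%) and 2 in untreated 2 (1.63%).

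In complex IV, the cytochrome c oxidase, both called genes encode assembly factors, and 0 of 19 subunit genes had a gene-end peak, a count near the background of 8.55% of all genes in any list. Cox14 takes part in the early assembly around the mitochondrially encoded subunit 1. It spans 99725618 to 99728136 on chromosome 15, and its 3 peaks also lay within 1 kb of an end of Gpd1. Its peak ran from 99725322 to 99725667 in untreated 1 (score 11.3, percentile 98.8) and from 99725318 to 99725584 in untreated 2 (6.58, 93.4), an overlap of 263 bp. The chromium 1 peak ran from 99724512 to 99724859 (5.55, 80.9), its midpoint 809 bp from that of untreated 1, and overlapped neither. The untreated peaks were thus at the same place and the chromium 1 peak farther upstream, 932 bp before the start. In chromium 2 the closest peak was 70.8 kb off. Cox19, a copper chaperone of the complex, had an untreated 1 peak 927 bp inside the gene from its start (87.6), and the nearest chromium 1 peak lay 1346 bp upstream of the start.

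Complex I, the NADH dehydrogenase, had 10 called genes of 47, against 8.55% of all genes in any list. Of the 10, 6 encode subunits and 4 assembly factors. Ndufb10, an accessory subunit of the membrane arm, spans 24722060 to 24724423 on chromosome 17. At its start, peaks of untreated 1 (24724352 to 24724774, score 6.82, percentile 90.3) and untreated 2 (24724326 to 24724534, 4.71, 57.2) overlapped by 183 bp. At its far end, next to Rps2, which encodes a ribosomal protein, peaks of chromium 1 (24722026 to 24722254, 4.41, 49.6) and untreated 2 (24722203 to 24722513, 3.27, 12.4) overlapped by 52 bp. The site at the start was therefore held by the untreated lists alone, while the site at the far end was shared by chromium 1 and untreated 2, with the chromium 1 midpoint 2283 bp from the start. In chromium 2 no peak lay closer than 57.4 kb.

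Ndufaf4, an assembly factor of complex I, had peaks of both number 1 lists over its start on chromosome 4. They ran from 24897960 to 24898168 in untreated 1 (score 3.97, percentile 33.6) and from 24897900 to 24898196 in chromium 1 (6.1, 85.9), and the first lay wholly inside the second. The chromium 1 peak thus ranked higher in its list than the untreated 1 peak did. Untreated 2 and chromium 2 had no peak within 640 kb of a gene end. This was the only respiratory chain gene of the 4 whose window holds the stricter CTCF core.

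The remaining complex I genes were called in 1 list each. In untreated 1 these were Ndufaf3, an assembly factor that works with Ndufaf4, with a peak 358 bp inside the gene and within 1 kb of an end of Dalrd3 (percentile 90.3), Ndufab1, the mitochondrial acyl carrier protein, 128 bp upstream of the start (77.4), and Ndufs7, a core subunit with an iron-sulfur cluster, 6 bp from an annotated start (41.4). In chromium 1 they were the accessory subunits Ndufa10 (91.3) and Ndufb7 (77.8) and the assembly factors Ndufaf6 (49.6) and Ndufaf2 (32.1). The Ndufb7 peak was centred 103 bp upstream of the start and the Ndufaf2 peak 298 bp from the far end of the gene. In untreated 2 the only one was Ndufs8, another core iron-sulfur subunit, 718 bp beyond its far end (18.8). None of these peaks overlapped a peak of another list.

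In complex II, succinate dehydrogenase, 0 of 4 subunit genes and 2 of 4 assembly factor genes were called. Sdhaf2, needed to attach the flavin to Sdha, had an untreated 1 peak 446 bp inside the gene and within 1 kb of an end of Cpsf7 (percentile 50.7). Sdhaf1, needed for the iron-sulfur clusters of Sdhb, had a chromium 1 peak 605 bp beyond its far end (49.6). In complex III, the cytochrome bc1 complex, 2 of 8 genes were called, both in untreated 1. Uqcrc1, a core protein, had its peak 78 bp upstream of the start and over the CTCF core shown above, yet at a percentile of only 18.3. Uqcr10, a small subunit, had its peak 574 bp upstream and within 1 kb of an end of Zmat5 (40.6). By role, 8 of 22 assembly factor genes and 12 of 87 subunit genes had a gene-end peak in any list, beside 8.55% of all genes. The counts by complex stand against the same share. The difference by role was not tested, since peaks at genes of 1 list are not replicates.

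**Figure D3:**
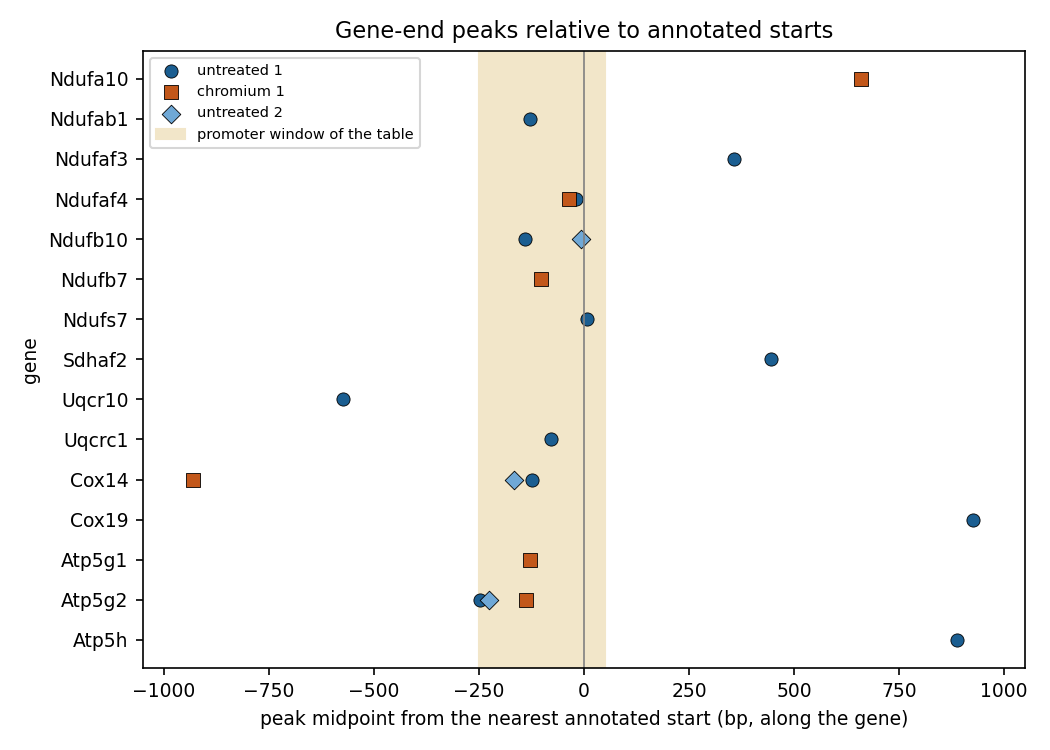
Distance of each peak midpoint from the nearest annotated start (bp, negative upstream) for the 15 respiratory chain genes with such a peak within 1 kb, with 1 marker shape per library and the shaded band for the window of the promoter table. Most markers sit within 250 bp upstream of the start, and the chromium 1 marker of Cox14 stands apart from its untreated markers.

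The peaks lay mostly at starts. Of the 28 gene-end peaks, 27 were at genes whose strand the promoter table gives, and 21 of these were nearer to the start and 6 to the far end. Measured from annotated starts, 12 of 89 genes had a peak within 1 kb in untreated 1 and 3 in untreated 2, beside 3.45% and 1.1%, and 6 and 0 in the chromium lists, beside 3.06% and 0.314%, of the 17491 protein-coding genes with an entry. In any list 15 genes had one (16.9%, against 6.21%), and 1, Ndufb10, had one in both untreated and neither chromium list (against 0.166%). In untreated 1 all 12 were at starts, and 0 of the 89 genes had a peak within 1 kb of the far end. In chromium 1 the record's start was called at 6 genes and its far end at 3, and in untreated 2 each was called at 3. Over all genes with a strand the starts were also called more often than the far ends, at 3.13% against 1.44% in untreated 1, 2.72% against 1.88% in chromium 1 and 1.05% against 0.52% in untreated 2.

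The genes are short and many lie next to another gene. Their median length was 7.39 kb against 17.2 kb over all protein-coding genes, and 54.1% had an end of another protein-coding gene within 1 kb of an own end, against 24.8%. Among genes with such a neighbour, 10 of 59 respiratory chain genes (16.9%) and 12.6% of all genes had a gene-end peak in any list. Among genes without one, 10 of 50 (20.0%) and 7.21% of all genes did. Of the genes up to 5 kb long, 9 of 34 respiratory chain genes (26.5%) and 6.77% of all genes were called. In the class of 5 to 20 kb, which holds 57 of the 109 genes, 7 (12.3%) and 10.4% of all genes were called, a difference of under 2 percentage points. From 20 to 100 kb, 3 of 13 (23.1%) and 8.81% of all genes were called, and above 100 kb 1 of 5 (20.0%) and 6.22%. The part of gene length and neighbours in the higher share was not tested. Of the 28 peaks, 9 lay within 1 kb of an end of another gene, against 12.9% of all gene-end peaks over the lists.

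The lists differ in peaks between chromosomes, and the called genes were spread over 12 chromosomes of the 19 that hold such genes. Chromosome 11 had 3 called genes of 7, against 12.2% of all genes there, and chromosome 15, which is rich in peaks, had 2 of 6, against 19.7%. If each gene took the share of all genes called on its own chromosome, 10.2 called genes would be counted, against the 20 observed and 9.32 from the share over the whole genome. Ndufaf3 and Uqcrc1 lie on chromosome 9, where 1.75% of all genes were called. These counts cover calls in any list and use the average of each chromosome. The part of chromosomes in the higher share was not tested.

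The scores of these peaks spanned most of each list. The median percentile was 64.1 over 12 peaks in untreated 1, 63.7 over 10 in chromium 1 and 42.2 over 6 in untreated 2, beside 66.4, 58.0 and 52.8 over all gene-end peaks of the same lists. The lowest and highest values were 18.3 and 99.7 in untreated 1, 32.1 and 98.5 in chromium 1, and 12.4 and 96.5 in untreated 2.

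A wider rule counted peaks inside a gene or within 10 kb of it. Such a peak was called at 43 genes in untreated 1 (39.4%, against 25.8% of all genes), at 36 in chromium 1 (33.0%, against 28.6%), at 17 in untreated 2 (15.6%, against 11.4%) and at 6 in chromium 2 (5.5%, against 4.86%). These shares were above those of all genes in each list, by under 1 percentage point in chromium 2. The exact 95% interval lay above the share of all genes in untreated 1 (30.2 to 49.3). It held that share in chromium 1 (24.3 to 42.7), untreated 2 (9.36 to 23.8) and chromium 2 (2.05 to 11.6). In any list, 54 of 109 genes had such a peak, against 41.4% of all genes. Only Atp5pb, subunit b of the peripheral stalk, had one in all 4 lists (1.64% of all genes), and its 4 peaks overlapped one another in no case. By gene, 2 genes, Ndufaf1 and Ndufs7, had a peak in both untreated and neither chromium list, against 1.26% of all genes, and 0 had the reverse, against 0.521%. The Ndufaf1 peaks lay beyond opposite ends of the gene, at 6454 bp in untreated 1 and 3445 bp in untreated 2, and did not overlap.

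The chromium 2 peaks near these genes included those at Sdhaf2, Atp5pb, Ndufv2, Ndufv3 and Cox6c, at percentiles from 7.66 (Atp5pb) to 94.3 (Cox6c). The Cox6c peak was inside the gene, 1521 bp from an end, and the Sdhaf2 peak inside the gene, 1204 bp from its far end. None of the 6 overlapped a peak of another list, and over all protein-coding genes only 63 of 1068 chromium 2 sites (5.9%) were shared, so 0 of 6 is near the general share. In untreated 1 15 of 53 sites at these genes were shared (28.3%, against 12.2% at all genes), in chromium 1 12 of 53 (22.6%, against 9.14%) and in untreated 2 10 of 22 (45.5%, against 15.6%). The median distance from a gene end to the nearest chromium 2 peak was 1020 kb for the respiratory chain genes and 1010 kb for all genes. It was 30.6 and 70.9 kb in untreated 1, 39.3 and 59.6 kb in chromium 1, and 217 and 368 kb in untreated 2, in the same order.

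Merging overlapping peaks gave 114 sites inside or within 10 kb of these genes, of which 17 (14.9%) were found in 2 or more lists, against 5.31% of the 19210 such sites at all protein-coding genes. The lists that held them were untreated 1 with chromium 1 at 7 sites (6.14% of the 114, against 2.87% at all genes), both untreated lists alone at 5 (4.39%, against 0.734%), all lists but chromium 2 at 3 (2.63%, against 0.895%), and chromium 1 with untreated 2 at 2 (1.75%, against 0.484%). No site at these genes was shared by the chromium lists alone, as at 0.0521% of the sites at all genes. Atp5g2 and Ndufb10 each held more than 1 of the 17 sites. The part of gene length, neighbours and chromosomes in the higher share of sites in 2 or more lists was not tested. The sites of the untreated lists alone lay at Cox14, at the start of Ndufb10, 4826 and 4893 bp beyond the far end of Ndufaf2, 3243 and 3346 bp before the record of Ndufs7 and 6552 and 6752 bp before Ndufv1, which binds NADH and FMN. The Ndufs7 site (chromosome 10, 80245626 to 80245990) lay within 1 kb of an end of Pwwp3a, at percentiles of 88.2 in untreated 1 and 6.43 in untreated 2.

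**Figure D4:**
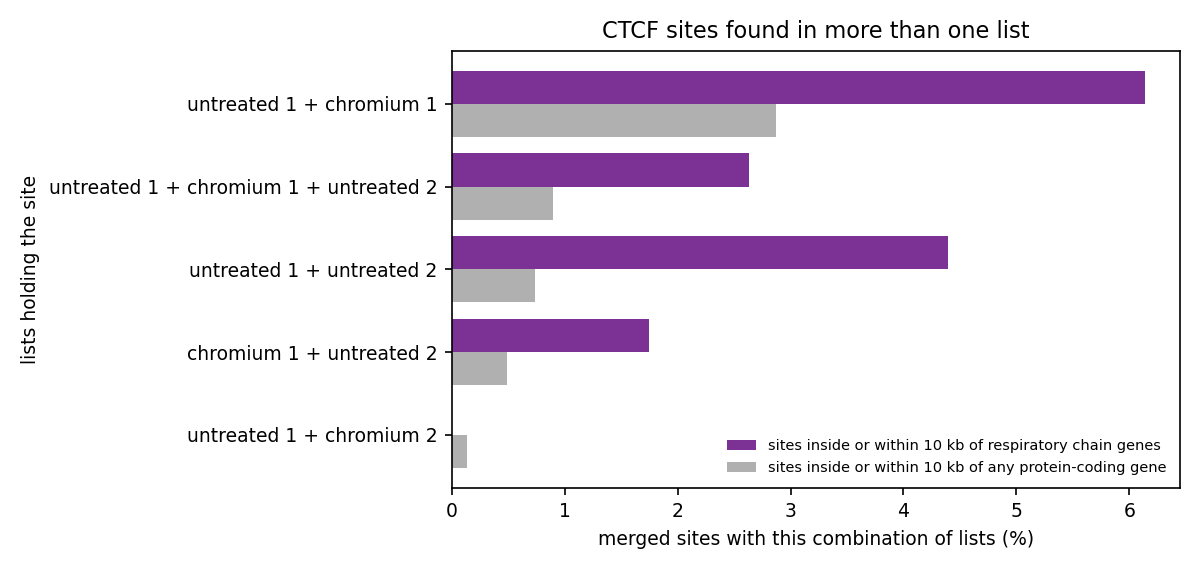
Percent of merged CTCF sites found in each of the 5 most frequent combinations of lists, for the 114 sites inside or within 10 kb of respiratory chain genes (purple) and the 19210 at all protein-coding genes (grey). The purple bars are longer for the 4 combinations that occur at these genes, and none of them holds chromium 2.

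Of the sites in 3 lists, the site outside Atp5g2 lay inside Ndufa4l2, a paralogue of the complex IV subunit Ndufa4 that is known to be induced by hypoxia. It ran from 127512769 to 127513273 on chromosome 10. Its percentiles were 99.4 in untreated 1 (score 13.9), 99.5 in chromium 1 (12.2) and 27.3 in untreated 2 (3.75). It ranked among the highest peaks of both number 1 lists and low in untreated 2. Among the sites shared by the number 1 lists alone, one lay near Ndufs1, a core subunit of complex I, at percentiles of 83.1 in untreated 1 and 97.2 in chromium 1. Another lay 3741 and 3756 bp upstream of Uqcrfs1, the Rieske iron-sulfur protein of complex III, at 85.3 in untreated 1 and 98.7 in chromium 1. The Ndufs1 site is within 1 kb of an end of Eef1b2.

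The promoters of these genes were described by their letters in 300-base windows, 250 before to 50 after an annotated start. Entries matched 89 of the 109 genes, with 95 windows, and 17491 protein-coding genes with 21262 windows. The NRF1 motif was in 7.37% of the windows of respiratory chain genes and in 1.33% of all windows, the ETS motif in 29.5% and 11.6%, and the YY1 motif in 9.47% and 1.83%. The CTCF core was in 14.7% against 9.88%, and its stricter form in 2.11% against 1.62%. The median GC content was 59.0% against 56.3%. The NRF1, ETS and YY1 motifs were thus more frequent in the windows of these genes than in all windows.

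Of the 95 windows, 9 overlapped a CTCF peak of any list. Of these 9, the CTCF core was in 3, those of Ndufaf4, Uqcrc1 and Atp5g1, and its stricter form in 2, those of Ndufaf4 and Uqcrc1. Over all genes, the core was in 175 of 547 overlapped windows (32.0%) and in 9.88% of all windows, and the stricter form in 13.2% and 1.62%. The shorter stretch AGGGGGNG, chosen from these sequences, was in 5 of the 9 windows, in 30.2% of all overlapped windows and in 16.3% of all windows. Windows overlapped by chromium 2 peaks held the core in 0 of 15 cases, against 132 of 341 in untreated 1, 85 of 258 in chromium 1 and 47 of 119 in untreated 2. The NRF1 motif was in 3 of the 9 windows, those of Atp5g2, Ndufaf4 and Uqcrc1, and in 10 of the 547 overlapped windows of all genes (1.83%).

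**Figure D5:**
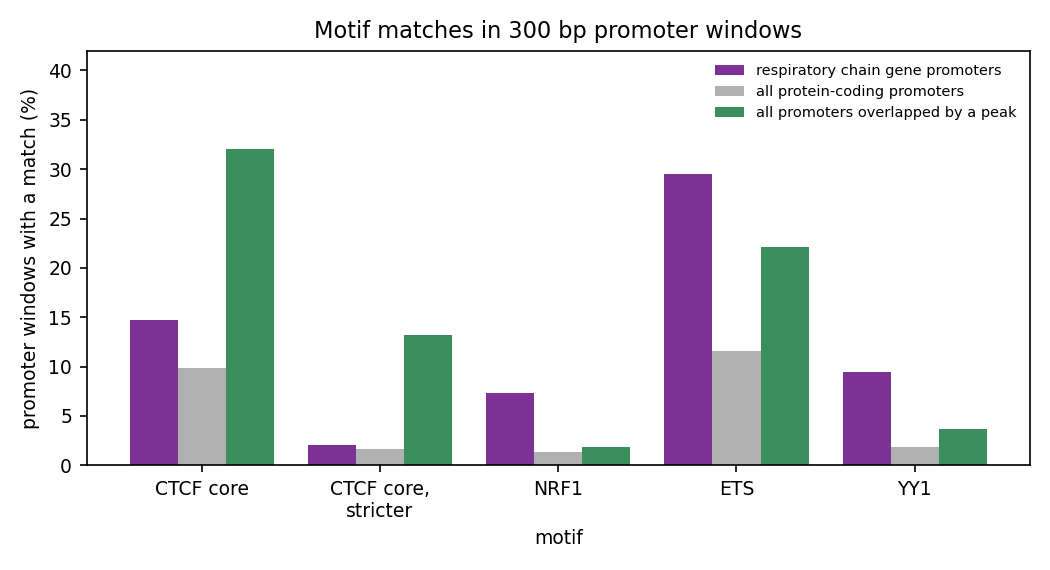
Percent of promoter windows with at least 1 match to each motif on either strand, for respiratory chain genes (95 windows), all protein-coding genes (21262) and all windows overlapped by a CTCF peak of any list (547). The NRF1, ETS and YY1 bars of respiratory chain genes stand above those of all promoters, and the CTCF bars are tallest for the overlapped windows.

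Other genes of the pathway were counted from a list of assembly factors, electron carriers and regulators. Of 54 such genes, 6 and 1 had a gene-end peak in untreated 1 and untreated 2 (4.31% and 1.63% of all genes), 3 and 0 in chromium 1 and chromium 2 (4.31% and 0.43%), and 8 (14.8%) had one in any list, against 8.55% of all genes. Uqcc2, an assembly factor of complex III, had overlapping peaks in untreated 1 (chromosome 17, 27133946 to 27134208, percentile 98.2) and chromium 1 (27133892 to 27134365, 91.3). Bcs1l, which inserts the Rieske protein into complex III, had peaks in the same lists (72.5 and 0.467) that did not overlap. Higd2a, Dhodh, Nrf1 and Tfam, the mitochondrial transcription factor, were called in untreated 1 alone, Lrpprc in chromium 1 alone, and the coactivator Ppargc1b in untreated 2 alone. The 0 in chromium 2 is near that list's background.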

How the data were processed

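CTCF peaks of 4 libraries from Hepa-1c1c7 cells were used. The 2 input samples were not analysed here. Bowtie, MACS2 and build mm10 are named per the submitters' processing notes, without versions or thresholds. Peak names show that each library was called against the input of its number, so replicates were not pooled. The deposited score of each peak is the authors' value, on an unstated scale, and it was turned into a percentile within its list. Read depth is not known, and the number of peaks does not measure it.

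Positions were read as 1-based mm10 coordinates. Gene records and promoter windows were from RefSeq, GRCm38.p6. Peaks overlapping by at least 1 bp were merged into sites. Strand and annotated starts came from the promoter table. Libraries were compared by a two-sided exact permutation test. Gene counts have no test and stand beside the share of all protein-coding genes. The replicate number is also that of the shared input. The code that assigns peaks to gene ends was checked with peaks planted inside the 1 kb limit. In each of 4 runs over 21883 genes all 200 planted genes were recovered. This checks the code only and does not measure how well CTCF peaks were detected.

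The genes, lists and tests were chosen with earlier results of these data known. The rule named every gene of the complexes with a gene-end peak, up to 30, and pathway genes with one in 2 or more lists, up to 10. Other pathway genes, and genes of the wider window, were picked for naming with their values in view. Of the pathway list, Usmg5 is Atp5md and was counted with the complexes. Alternatives were other windows, annotated starts, peak overlap, score limits, equal list lengths, subunits alone and each library left out. Counts by overlapping site, and the difference less that of all genes, were added after the data were seen. Python 3.11.15, numpy 2.4.6, pandas 2.3.3, scipy 1.17.1 and matplotlib 3.10.9 were used.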

Additional observations from a re-analysis of the deposited data

How the results depend on the processing

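The difference between chromium and untreated libraries stayed below 0, at -0.917 to -8.26 percentage points, under all other windows, score limits and list lengths tried, and was -3.45 points for subunits alone and -2.61 points after subtracting the share of all genes in each list. With the replicate block the value was -3.21 points, the same as without it (two-sided exact sign-flip test within replicate numbers, p = 0.5, the smallest it can give). Leaving out 1 library gave values from -7.8 (chromium 1 left out) to 1.38 (chromium 2 left out), and 0 with untreated 1 left out, and no alternative can go below a p of 1 in 3 by the library test.

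The number of genes called in any list, 20 (against 8.55% of all genes), became 54 inside the gene or within 10 kb (against 41.4%). It became 12 with only peaks in the upper part of each list by score (its median or more), 6 with lists of equal length and 12 for subunits alone. It ranged from 12 to 20 with 1 library left out (12 without untreated 1). The score limit and equal lengths also lowered the share of all genes, in untreated 1 from 4.31% to 2.85% and 1.35%. Their share of all genes in any list was not counted. The number of genes called in both untreated and neither chromium list was 0 (0.274% of all genes). It became 1 at annotated starts (0.166%) and 2 inside the gene or within 10 kb (1.26%). It became 1 with a window of 500 bp, 1 with lists of equal length and 2 by overlapping site (Cox14 and Ndufb10), where the share of all genes was not counted. With 1 library left out the number ranged from 0 to 8. That count needs 1 library less when a library is left out, which by itself raises it. The reverse pattern stayed at 0 in all of these except with chromium 2 left out, where 6 genes were called in chromium 1 alone, so its range was 0 to 6. Read depth is not known, and a list's length limits what it can show.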
